A study of Mus musculus with 16 samples.

Results

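The genes described here are 10 markers of the fat progenitors and fibroblasts that lie between the adipocytes of white fat. They are Pdgfra, Dpt and Islr, found in fibroblasts of many tissues, the surface proteins Ly6a and Thy1, the interstitial progenitor markers Dpp4, Pi16 and Cd55, the committed preadipocyte marker Icam1, and F3, the marker of a regulatory stromal subset. They were listed by symbol out of 24454 genes in the deposited count table, and all 10 had enough counts to be tested.

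Polyadenylated RNA was sequenced from the whole gonadal fat depot of C57BL/6J mice, an inbred strain. The animals were male, lean, 16 weeks old and fed chow. The design crossed 2 surgeries with 2 infusions, with 4 libraries in each of the 4 groups. Sham_Veh mice had a sham operation and vehicle, Sham_SHU mice a sham operation and SHU9119, VX_Veh mice subdiaphragmatic vagotomy (sDVX) and vehicle, and VX_SHU mice sDVX and SHU9119. The vagotomy cuts the vagus nerve below the diaphragm, and SHU9119 is a peptide that blocks the melanocortin receptors of the brain. Vehicle or SHU9119, at 1 nmol per day, was delivered to the cerebral ventricles by minipump for 2 weeks, beginning 4 weeks after the operation. Food was given isocalorically to all 4 groups meanwhile, so vehicle-infused controls shared the minipump, the ventricular infusion and the feeding regime with the treated mice. The study concerns a route from brain melanocortin signalling through the vagus nerve to fat expansion. Whether the libraries of a group are separate animals is not in the labels, and a p-value here measures the spread among libraries, which may be technical.

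Stromal cells of fat descend from mesenchymal cells that carry the PDGF receptor alpha chain. In current schemes DPP4-positive cells lie in the fibrous interstitium around the fat lobules and give rise to committed preadipocytes that carry ICAM1, and these mature into adipocytes. A further subset, marked by CD142, the product of F3, has been described as holding back adipogenesis in its neighbours. The same cells secrete most of the collagens of the tissue and of the proteins that organise them, among them dermatopontin, the product of Dpt.

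Library totals ran from 20425295 to 30889052 counts. Levels are given in CPM, counts scaled to library size and composition. Markers of epididymis or testis, the tissues next to gonadal fat, summed to at least 500 CPM in 6 of the 16 libraries. They were Sham_Veh3, Sham_Veh4, Sham_SHU3, Sham_SHU4, VX_Veh4 and VX_SHU4. Motile cilia markers, which belong to ciliated epithelium, summed to 5.46 to 856.4 CPM, and to 25.2 or less in 6 of the 8 SHU9119 libraries. Values without these 6 libraries, from a fit of the other 10, are given below where they change a call in the averaged comparisons, and beside some of the other differences that they moved. That fit held only Sham_Veh1 and Sham_Veh2, Sham_SHU1 and Sham_SHU2, VX_Veh1 to VX_Veh3 and VX_SHU1 to VX_SHU3. Its differences within a surgery or infusion thus rest on few libraries, fewest in sham mice. For SHU9119 averaged over surgeries that fit called 24.4% of the 16644 genes it tested, against 1.87% in the fit of all 16. Its cilia sums stood at 207.4 to 856.4 CPM under vehicle and at 5.46 to 148.1 under SHU9119, without overlap. Markers of the main other cell types were present in every library, and summed to 8101 to 28670 CPM for 6 adipocyte genes, 802.2 to 1586 for 8 endothelial genes, 548.5 to 1188 for 8 macrophage genes and 7.96 to 13.95 for 8 T cell genes. In bulk tissue, fewer cells of a type and less RNA per cell cannot be told apart.

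Every member was detected in every library, together with Dcn (mean of 1461 CPM), the proteoglycan gene typical of fibroblasts, and Pdgfrb and Cd34. Detection in whole tissue does not show which cells made these transcripts, so it is no test of the label. Several members are not restricted to stromal cells. Ly6a is also made by endothelium, Icam1 by endothelium and macrophages, Thy1 by T cells and nerve, Dpp4 by T cells and epithelia, and Cd55 by most cells.

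Per kilobase of exons the 10 genes covered a wide range, led by Dpt at 201.6 CPM per kb (mean of 16 libraries) and Ly6a at 141.6. F3 and Islr followed at 22.8 and 19.1. The other 6 lay close together, from Pdgfra at 7.57 to Icam1 at 5.41, and their ranges over the libraries overlapped, so the order among these neighbours was not resolved. Dpp4 had the widest spread of the 10: its highest library stood 8.18-fold above its lowest, against 4.33-fold for Pi16, 3.51-fold for Dpt and 1.73-fold for Islr.

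**Figure D1:**
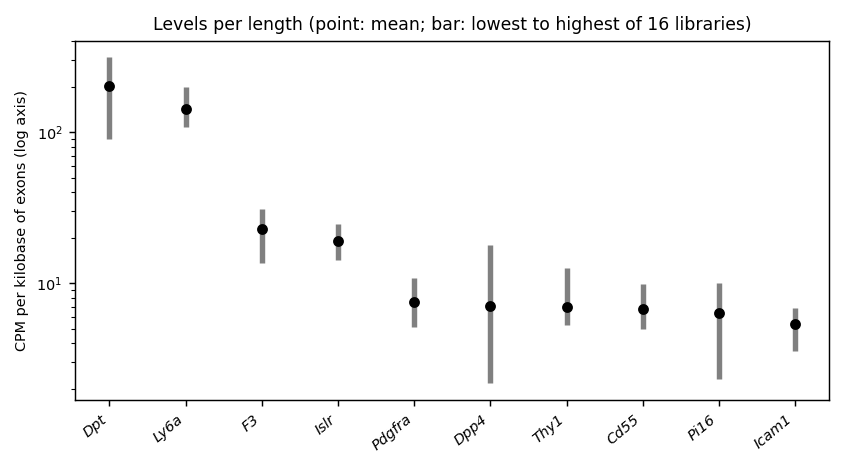
Level of each of the 10 genes per kilobase of exons (log axis, CPM per kb); points are means of 16 libraries and bars run from the lowest to the highest library. Dpt and Ly6a stand above the rest, 6 genes share the range near 5 to 8, and Dpp4 has the longest bar.

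Promoter sequence is shown for the 2 members that passed a test, Dpt and Islr, and for Cd55, the member nearest to the threshold among the rest. They are RefSeq sequences of the GRCm38.p6 assembly, the build of the deposited counts (mm10), and 8 of the 10 members had an entry. Each is the stretch before the start that RefSeq gives, read 5′ to 3′ on the gene's own strand, and that of Dpt stops where an exon of the gene begins in the GENCODE annotation. The gene spans given below are RefSeq's. The stretches of Islr and Cd55 lie inside these spans, downstream of the outermost start, with no exon of the GENCODE annotation in them. Capitals mark the E-box, CANNTG, in Dpt and Islr and the GC box, GGGCGG or its reverse complement, in Cd55, and no 2 matches overlap there.
Dpt, chr1:164796413-164796643, plus strand: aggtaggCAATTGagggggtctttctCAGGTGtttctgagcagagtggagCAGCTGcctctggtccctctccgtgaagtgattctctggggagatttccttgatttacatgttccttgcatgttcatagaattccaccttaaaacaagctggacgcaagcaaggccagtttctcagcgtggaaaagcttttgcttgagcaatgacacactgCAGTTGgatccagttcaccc
Islr, chr9:58158555-58158804, minus strand: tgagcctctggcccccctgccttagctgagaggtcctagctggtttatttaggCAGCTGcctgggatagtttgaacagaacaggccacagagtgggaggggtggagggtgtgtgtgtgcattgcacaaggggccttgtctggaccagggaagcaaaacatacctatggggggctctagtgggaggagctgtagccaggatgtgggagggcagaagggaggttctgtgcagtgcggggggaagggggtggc
Cd55, chr1:130462745-130462994, minus strand: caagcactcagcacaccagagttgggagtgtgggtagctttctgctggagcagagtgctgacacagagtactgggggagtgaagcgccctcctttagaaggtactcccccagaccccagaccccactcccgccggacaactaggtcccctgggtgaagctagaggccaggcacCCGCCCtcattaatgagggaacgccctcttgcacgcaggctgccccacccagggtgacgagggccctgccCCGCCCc

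Sequence motifs were searched on both strands of the 250 bases before the start of each member with an entry and of 27025 such windows in all. The E-box was found in 5 of 8 members' windows against 66% of all windows, the GC box in 3 against 32.9%, the CCAAT box (CCAAT) in 1 against 34.5%, the TATA box (TATAAA) in 1 against 13% and the AP-1 motif (TGANTCA) in 1 against 6.9%. These are matches of letters, and no binding was measured. The Dpt window held 6 E-boxes, 4 of them in the printed stretch, while that of Islr held 1 and that of Cd55 held none of this motif but 2 GC boxes.

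Dpt and Islr were higher under SHU9119 when the infusion was averaged over both surgeries, and these were the 2 members of 10 that passed the test. Dpt was 1.43-fold higher under SHU9119 and Islr 1.18-fold higher. In this comparison 1.87% of the 16682 genes tested had an adjusted p under 0.05 (edgeR quasi-likelihood test, Benjamini-Hochberg over all genes), and 1.5% passed as higher. At an unadjusted p under 0.05 the count was 6 of 10 members, against 28.5% of all genes, with Cd55 and Thy1 also at positive and Pdgfra and Icam1 at negative differences. The median log2 difference of the 10 members was -0.04, beside -0.04 for all genes, and 4 of the 10 were above 0, so the list had no common direction. With the replicate number as a block, or with epididymis and cilia marker sums as covariates, 0 members and 0% of all genes passed.

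Within the sham mice alone no member had an adjusted p under 0.05, against 0.114% of all genes. At an unadjusted p under 0.05 there were 5 members, Pdgfra, Cd55, Dpt, Thy1 and Islr, beside 19.6% of all genes. DESeq2's Wald test called Pdgfra and Cd55 there, beside 8.74% of the 13785 genes it gave an adjusted p. limma-voom called 4 members, beside 23.2% of all genes. Within the sDVX mice SHU9119 gave 0 members at the adjusted threshold, where 0.00599% of all genes passed, and 2 at an unadjusted p under 0.05, Dpt and Islr, beside 11.6% of all genes. DESeq2 called Islr there, beside 0.486% of the 11112 genes it gave an adjusted p, and limma-voom no member, beside 0.12% of all genes.

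sDVX moved no member past the adjusted threshold by edgeR, and no gene at all passed (0% of 16682 under vehicle, 0% under SHU9119 and 0% averaged over infusions). Under vehicle 2 members, Islr and Dpt, had an unadjusted p under 0.05, beside 8% of all genes, and under SHU9119 4 did, Islr, Cd55, Icam1 and Pdgfra, beside 10.7%. Averaged over infusions the count was 4 of 10, beside 16%: Islr and Icam1 with positive and Cd55 and Dpt with negative differences. The median log2 difference of the members in that average was 0.19, against 0.00 for all genes, with 7 of 10 above 0. DESeq2 called 1 member under SHU9119 (Islr), beside 0.574% of the 16215 genes it gave an adjusted p, and 2 in the average (Cd55 and Islr), beside 2.52%. By limma-voom the counts were 3 under SHU9119, beside 4.67% of all genes, and 1 in the average, beside 0.671%. Neither tool called a member under vehicle.

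The interaction, which asks whether the SHU9119 difference was another one after vagotomy than after sham surgery, had 0 members at the adjusted threshold (0% of all genes) and 0 at an unadjusted p under 0.05 (4.76% of all genes), and 0 by DESeq2 and by limma-voom. Its largest estimates were F3 at 0.51 (95% interval -0.14 to 1.17) and Pdgfra at 0.45 (-0.01 to 0.91) on the log2 scale.

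**Figure D2:**
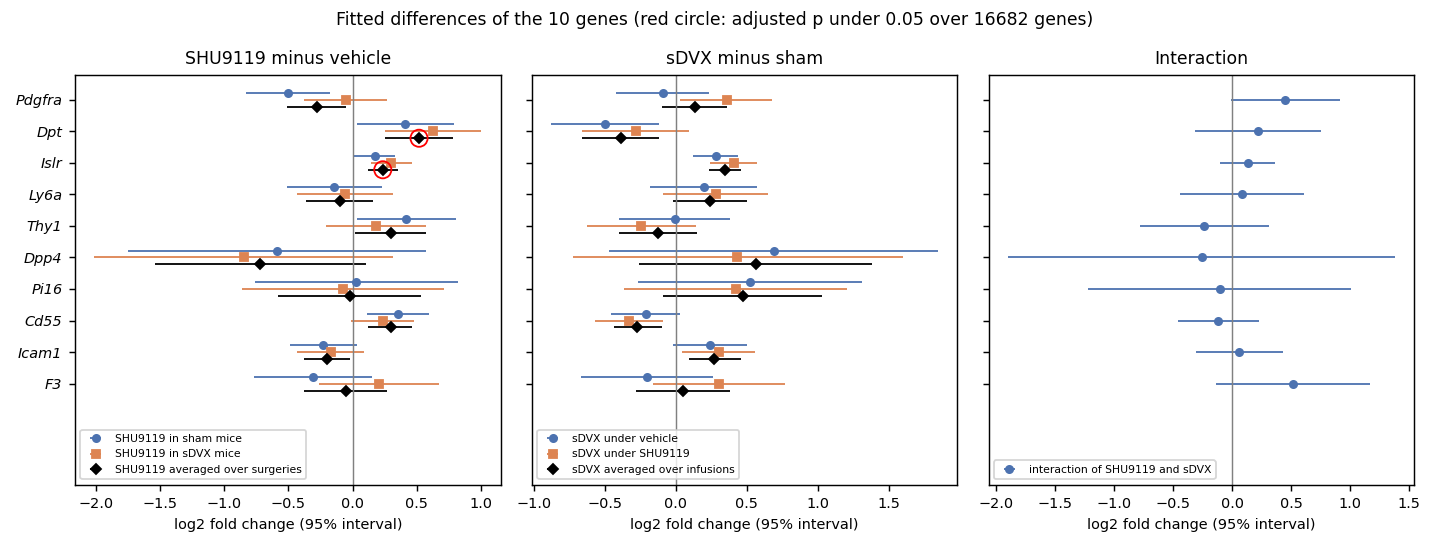
Fitted log2 differences with 95% intervals for the 10 genes: SHU9119 minus vehicle (left), sDVX minus sham (middle) and their interaction (right). Red circles mark Dpt and Islr for SHU9119 averaged over surgeries, the 2 calls at an adjusted p under 0.05, and every interaction interval reaches 0.

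Dpt (mm10 chr1:164796663-164824274) encodes dermatopontin, a small matrix protein that binds decorin and promotes collagen fibril assembly. Under sham surgery the vehicle libraries stood at 309.4, 348.7, 350 and 340.1 CPM and the SHU9119 libraries at 429.2, 446.3, 373.1 and 541.3. After sDVX the vehicle libraries stood at 154.4, 294.7, 265.2 and 240 CPM and the SHU9119 libraries at 396, 344.3, 424.5 and 304.9. All 4 SHU9119 libraries lay above all 4 vehicle libraries within each surgery, and the highest VX_Veh library lay below the lowest Sham_Veh library.

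Averaged over surgeries the Dpt difference was 0.52 log2 units (SE 0.12, edgeR adjusted p = 0.0493), with 0.41 in sham and 0.62 in sDVX mice (adjusted p = 0.222 and 0.427). For sDVX the difference was -0.50 under vehicle (95% interval -0.88 to -0.12, edgeR adjusted p = 0.608) and -0.28 under SHU9119 (-0.66 to 0.09), the latter -0.15 in the 10 libraries low in epididymis and testis markers. The group means, from VX_Veh at 239 ± 60.4 CPM through Sham_Veh at 337 ± 19 and VX_SHU at 367 ± 53.3 to Sham_SHU at 448 ± 69.9 (SD, n = 4), thus ran from vagotomy with vehicle to sham with SHU9119, and the middle pair did not differ beyond their spread. The SHU9119 call was narrow: in fits leaving out 1 library it ranged from 0.45 to 0.58 with adjusted p from 0.0231 to 0.118, and it passed in 5 of 16, those without Sham_SHU3, VX_Veh1, VX_Veh2, VX_Veh4 or VX_SHU4. It was lost without any other single library, without the 6 libraries rich in epididymis or testis markers (0.58, adjusted p = 0.0509), without the low-count filter (0.54, adjusted p = 0.06), with the replicate number as a block (0.53, adjusted p = 0.0849) and with epididymis and cilia sums as covariates (0.40, adjusted p = 0.354). It passed by DESeq2 (17.6% of genes called) and limma-voom (23.4% called), and in edgeR with DESeq2 size factors (2.36%) or non-robust dispersion (1.91%).

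Islr (mm10 chr9:58156246-58159236) encodes meflin, a cell surface protein of mesenchymal progenitors. Its Sham_Veh libraries stood at 44.1, 43, 45 and 38.1 CPM and its Sham_SHU libraries at 42.1, 54, 47.2 and 48. The VX_Veh libraries stood at 51.2, 55.6, 48.2 and 51.5 CPM and the VX_SHU libraries at 65.9, 63.5, 62 and 62.5. VX_SHU was the highest group, with no overlap with any other group, and VX_Veh lay above Sham_Veh without overlap, while Sham_SHU overlapped both vehicle groups.

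Islr was higher under SHU9119 by 0.23 log2 units averaged over surgeries (SE 0.05, edgeR adjusted p = 0.0461), with 0.17 in sham mice (adjusted p = 0.236) and 0.30 in sDVX mice (adjusted p = 0.427). For sDVX the average difference was 0.34 (SE 0.05, 95% interval 0.23 to 0.46), and its unadjusted p of 1.55e-05 was the smallest of the 16682 genes, yet its edgeR adjusted p was 0.224. Under vehicle it was 0.28 (adjusted p = 0.608) and under SHU9119 0.41 (adjusted p = 0.30). DESeq2 gave the averaged sDVX difference an adjusted p of 5.73e-07 and limma-voom one of 0.0287, so the edgeR call and those of the other tools differed. In the edgeR fit of the 10 libraries low in epididymis and testis markers the averaged sDVX value was 0.35 (adjusted p = 0.645). The averaged SHU9119 value there was 0.24 (adjusted p = 0.049), beside 24.4% of genes called. The averaged SHU9119 difference also passed by DESeq2 (17.6% of genes called) and limma-voom (23.4%). In edgeR it passed with DESeq2 size factors (2.36%), with non-robust dispersion (1.91%) and without the low-count filter (0.771%). The SHU9119 call passed in 5 of 16 fits leaving out 1 library, those without Sham_SHU1, Sham_SHU3, VX_Veh1, VX_Veh2 or VX_Veh4 (log2 0.21 to 0.27 over the 16, adjusted p 0.0159 to 0.10), and was lost without any other single library, with the replicate block (0.23, adjusted p = 0.0765) and with the marker covariates (0.22, adjusted p = 0.294).

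Pdgfra (mm10 chr5:75151322-75198206), the receptor for PDGF-A and PDGF-C by which stromal cells of fat are usually isolated, had its lowest group in Sham_SHU. The Sham_Veh libraries stood at 79.3, 81.9, 108.4 and 72.5 CPM and the Sham_SHU libraries at 51.5, 57.7, 73.3 and 58.7. After sDVX the values were 96.3, 83.6, 77.4 and 64.1 CPM under vehicle and 85, 78.6, 65.9 and 79.7 under SHU9119. Of the 4 Sham_SHU libraries, only Sham_SHU3 reached into the Sham_Veh range, and the 2 sDVX groups overlapped.

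In sham mice the Pdgfra difference was -0.50 log2 units (95% interval -0.83 to -0.18, edgeR adjusted p = 0.108), and in sDVX mice -0.06 (-0.38 to 0.27). DESeq2 and limma-voom gave the sham value adjusted p of 0.0226 and 0.00722. It passed in 1 of 16 edgeR fits leaving out 1 library (adjusted p up to 0.293), that without Sham_SHU3 (0.0329, beside 7.09% of all genes). It did not pass with the replicate block (0.156), in a fit of the 2 groups alone (0.161) or with the marker covariates (0.194). Averaged over surgeries the difference was -0.28 (edgeR adjusted p = 0.111). It passed by limma-voom and, at -0.34, in the 10 libraries low in epididymis and testis markers (adjusted p = 0.0338, beside 24.4% of genes called). It passed in 0 of 16 fits leaving out 1 library (adjusted p up to 0.244). Dpt and Pdgfra, both read as general fibroblast genes, therefore had differences of opposite sign in the sham mice, with group means of 337 and 448 CPM for Dpt and 85.5 and 60.3 for Pdgfra under vehicle and SHU9119.

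**Figure D3:**
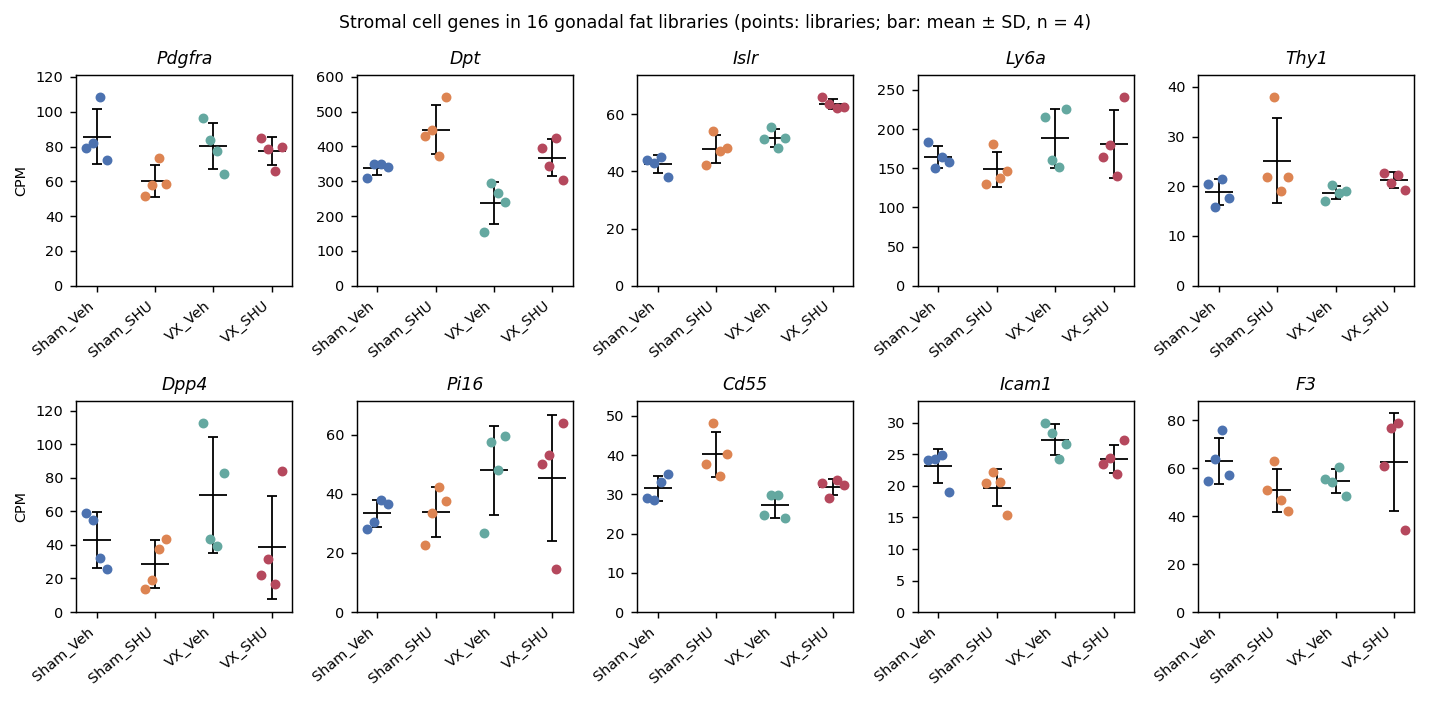
CPM of the 10 genes in each of the 16 libraries (points), with group means and SD (n = 4). For Dpt the SHU9119 points lie above the vehicle points in both surgeries, for Islr the VX_SHU points at 62 to 65.9 CPM lie above every other group, and for Dpp4 and Pi16 the libraries of one group are far apart.

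Ly6a (mm10 chr15:74994877-74998031) encodes SCA-1, the glycolipid-anchored protein used to sort stromal progenitors of mouse fat. It stood at 184.1, 150.5, 164.3 and 158.5 CPM in Sham_Veh, 130.4, 180.8, 137.8 and 146.6 in Sham_SHU, 215.7, 160.7, 151.2 and 225.4 in VX_Veh and 164, 179, 140.3 and 240.7 in VX_SHU. All groups overlapped. Its largest difference between single groups was 0.28 log2 units for sDVX under SHU9119 (95% interval -0.09 to 0.65, edgeR adjusted p = 0.53), which became 0.11 without VX_SHU4 and 0.08 in the 10 libraries low in epididymis and testis markers. Close relatives were abundant, with Ly6e at 498.4 CPM and Ly6c1 at 116.3, and reads that match more than 1 of them may have been divided by the counting in a way the sources used here do not give.

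Thy1 (mm10 chr9:44043384-44048579) encodes CD90, another glycolipid-anchored protein of mesenchymal cells, T cells and neurons. Its 4 groups stood at 20.4, 15.8, 21.5 and 17.7 CPM (Sham_Veh), 21.9, 37.9, 19 and 21.8 (Sham_SHU), 17, 20.2, 18.6 and 19 (VX_Veh) and 22.6, 20.6, 22.3 and 19.3 (VX_SHU). One library, Sham_SHU2, stood far above the other 15, which lay between 15.8 and 22.6. Averaged over surgeries the SHU9119 difference was 0.30 log2 units (95% interval 0.02 to 0.57, edgeR adjusted p = 0.141). Without Sham_SHU2 it was 0.18, and in sham mice alone it went from 0.42 to 0.17. The 10 libraries low in epididymis and testis markers, which include Sham_SHU2, gave 0.50 (edgeR adjusted p = 0.0465), beside 24.4% of genes called. The epididymis and cilia covariates gave 0.16 (adjusted p = 0.717). Markers of T cells in Sham_SHU2 summed to 8.07 CPM, within the range of the other libraries, and markers of Schwann cells to 50.01, within a range of 43.8 to 57.7.

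Dpp4 (mm10 chr2:62330073-62412315), the peptidase that gives interstitial progenitors their name, was the most variable member. Its libraries stood at 59.2, 55, 32.3 and 25.7 CPM in Sham_Veh and 13.8, 19.3, 37.6 and 43.7 in Sham_SHU. After sDVX they stood at 112.4, 43.6, 39.6 and 82.8 CPM under vehicle and 22.2, 31.5, 16.9 and 83.9 under SHU9119. Each group held a library more than 2-fold above another of the same group. No comparison separated the groups.

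The averaged SHU9119 difference of Dpp4 was -0.72 log2 units (95% interval -1.54 to 0.10, edgeR adjusted p = 0.224) and that of sDVX 0.56 (-0.26 to 1.38, adjusted p = 0.459). Without VX_SHU4 these were -1.08 and 0.21, and limma-voom gave 0.01 for sDVX. Among its lowest and highest libraries the level of Dpp4 went with the epithelial markers. The 4 lowest libraries, Sham_SHU1, VX_SHU3, Sham_SHU2 and VX_SHU1, at 13.8 to 22.2 CPM, were also the 4 with the smallest sums of epididymis and motile cilia markers, 11.9 to 75.2 CPM. The 3 highest were VX_Veh1, with the largest cilia sum at 856.4 CPM, and VX_SHU4 and VX_Veh4, with epididymis sums of 10230 and 9560. Sham_Veh3 and Sham_Veh4, with both sums together at 600.9 and 775 CPM, had Dpp4 at 32.3 and 25.7. Sham_SHU3 and Sham_SHU4, with 1713 and 3182, had it at 37.6 and 43.7. Sham_Veh1 and Sham_Veh2, with only 323.5 and 373.8, had it at 59.2 and 55, so the match was not complete.

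In the fit of the 10 libraries low in epididymis and testis markers the averaged SHU9119 difference of Dpp4 was -1.60 (edgeR adjusted p = 0.0326), beside 24.4% of genes called. In sham mice it was -1.78 in place of -0.59 (edgeR adjusted p = 0.0833). That value rests on Sham_Veh1 and Sham_Veh2 (59.2 and 55 CPM) against Sham_SHU1 and Sham_SHU2 (13.8 and 19.3). The sDVX difference averaged over infusions was 0.36 in that fit. With the marker sums as covariates the averaged SHU9119 difference was -0.51 (adjusted p = 0.611). Among those 10 libraries the cilia sums stood at 207.4 to 856.4 CPM in the 5 with vehicle and at 5.46 to 148.1 in the 5 with SHU9119, with no overlap. In the averaged comparison over all 16 libraries 0 of 8 motile cilia genes passed the adjusted edgeR threshold and 7 had an unadjusted p under 0.05, with log2 differences from -3.32 to -1.78. The part of these markers in the Dpp4 difference was not tested beyond these fits.

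**Figure D4:**
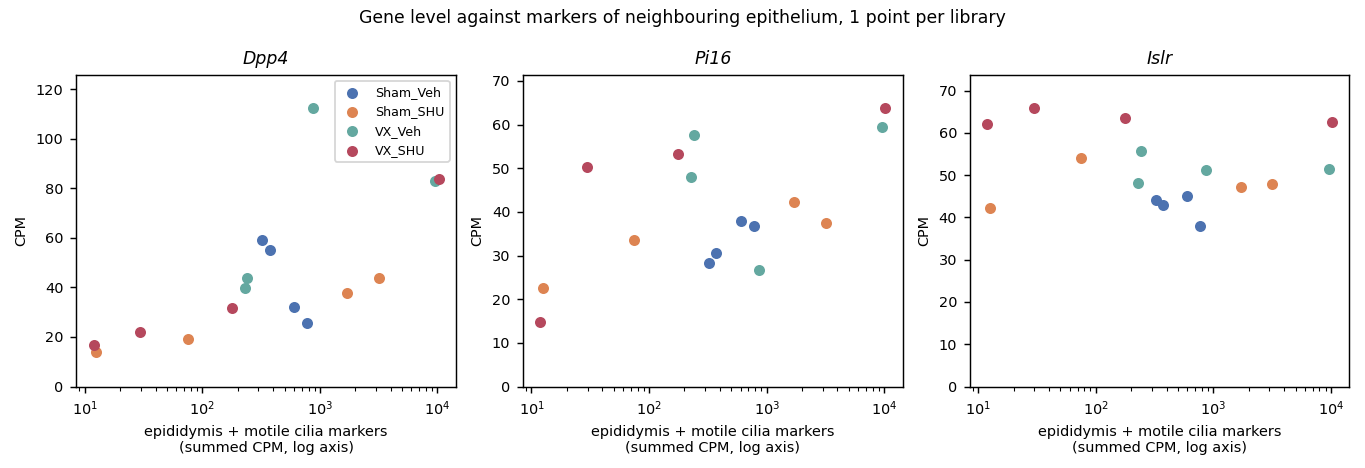
CPM of Dpp4, Pi16 and Islr in each library against the summed CPM of 9 epididymis and 8 motile cilia markers (log axis); colours give the group. The 4 lowest Dpp4 libraries are the 4 farthest left, while the 4 VX_SHU libraries have Islr at 62 to 65.9 CPM wherever they lie on the axis.

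Pi16 (mm10 chr17:29318796-29328903) encodes a secreted peptidase inhibitor of the interstitial fibroblasts. Its libraries stood at 28.2, 30.6, 37.9 and 36.7 CPM in Sham_Veh, 22.5, 33.6, 42.4 and 37.6 in Sham_SHU, 26.6, 57.7, 48 and 59.4 in VX_Veh and 50.2, 53.2, 14.7 and 63.8 in VX_SHU. In 6 of the 8 sDVX libraries it was higher than in every sham library, while VX_Veh1 stood within the sham range and VX_SHU3 below every sham library. The averaged sDVX difference was 0.47 log2 units (95% interval -0.09 to 1.03, edgeR adjusted p = 0.379), and SHU9119 gave -0.02 (-0.58 to 0.53).

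Cd55 (mm10 chr1:130429798-130465009), the complement regulator decay-accelerating factor, had its highest group in Sham_SHU. The sham libraries stood at 28.9, 28.6, 33.3 and 35.2 CPM under vehicle and at 37.8, 48.1, 34.7 and 40.4 under SHU9119. After sDVX they stood at 24.8, 29.9, 29.8 and 24.1 CPM under vehicle and at 32.8, 29, 33.6 and 32.5 under SHU9119. All 4 VX_SHU libraries lay below all 4 Sham_SHU libraries, and the other pairs of groups that share a surgery or an infusion overlapped.

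The averaged SHU9119 difference of Cd55 was 0.29 log2 units (SE 0.08), just outside the threshold (edgeR adjusted p = 0.0625). It passed without Sham_SHU3 (11% of genes called), by DESeq2 (adjusted p = 0.00951, 17.6% called), by limma-voom (0.00887, 23.4% called) and in the 10 libraries low in epididymis and testis markers (0.0326, 24.4% called). It did not pass in the other 15 of 16 fits leaving out 1 library (adjusted p up to 0.141), with the replicate block (0.101) or with the marker covariates (0.24, adjusted p = 0.417). For sDVX the averaged difference was -0.27 (95% interval -0.44 to -0.10, edgeR adjusted p = 0.224). Of the 3 interstitial markers, Dpp4 and Pi16 thus had positive sDVX estimates and Cd55 a negative one. The duplicated gene Cd55b, next to it in the genome, reached 17.7 CPM in 1 Sham_Veh library and had a mean of 1.92 over all 16.

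Icam1 (mm10 chr9:21015940-21028814), the adhesion ligand of leukocyte integrins and marker of committed preadipocytes, had its highest group in VX_Veh and its lowest in Sham_SHU. None of its differences passed the adjusted threshold in the edgeR fit of all 16 libraries. The Sham_Veh libraries stood at 24.1, 24.3, 24.9 and 19.1 CPM, the Sham_SHU libraries at 20.5, 22.2, 20.6 and 15.5, the VX_Veh libraries at 29.9, 28.5, 24.3 and 26.6, and the VX_SHU libraries at 23.5, 24.4, 21.9 and 27.4. The order of the group means was VX_Veh, VX_SHU, Sham_Veh and Sham_SHU, with overlap between each neighbouring pair. Averaged over infusions sDVX gave 0.27 log2 units (95% interval 0.09 to 0.46, edgeR adjusted p = 0.224), and SHU9119 gave -0.20 (-0.38 to -0.02, adjusted p = 0.143). Macrophage markers, from cells that also make Icam1, summed to 755 ± 167 CPM in VX_Veh and 952 ± 111 in Sham_Veh (SD, n = 4), and endothelial markers to 1114 ± 210 and 1162 ± 190. The part of these cells in the Icam1 values was not tested. In the 10 libraries low in epididymis and testis markers the averaged sDVX difference was 0.17 (adjusted p = 0.645).

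F3 (mm10 chr3:121723537-121735052), tissue factor, the receptor that starts coagulation with factor VII, marks the CD142-positive regulatory subset. It stood at 54.6, 63.6, 76 and 57 CPM in Sham_Veh, 50.9, 63.1, 46.7 and 42 in Sham_SHU, 55.2, 54, 60.3 and 48.2 in VX_Veh and 61, 76.7, 78.6 and 34.3 in VX_SHU. The highest and the lowest value of all 16 libraries both fell in VX_SHU. The SHU9119 difference was -0.31 log2 units in sham mice (95% interval -0.77 to 0.15, edgeR adjusted p = 0.424) and 0.20 in sDVX mice (-0.26 to 0.67, adjusted p = 0.721). The value in sham mice was -0.20 without Sham_Veh3 and -0.05 in the 10 libraries low in epididymis and testis markers, where the value in sDVX mice was 0.38. VX_SHU4, its lowest library, was the one with the largest epididymis sum.

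Groups of libraries that did not overlap were found for Dpt under SHU9119 in sham mice, 1 of 10 members beside 10.4% of all genes, and for Dpt and Islr under SHU9119 in sDVX mice, 2 of 10 beside 4.95%. For sDVX they were Dpt and Islr under vehicle, 2 of 10 beside 3.09%, and Cd55 and Islr under SHU9119, 2 of 10 beside 5.64%. Each of these 7 separations has an exact two-sided permutation p of 0.0286, which is the smallest that 4 libraries against 4 can give.

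Other genes of the same cell states were read from lists. For SHU9119 averaged over surgeries 1.5% of all genes passed as higher, and the median of all genes was -0.04 log2 units. No gene passed there with the replicate number as a block or with the marker covariates, so none of the calls below held in those fits. Without Sham_SHU4, and likewise without VX_Veh3, 3 genes passed. Of 8 further interstitial progenitor genes 1 rose under SHU9119 averaged over surgeries and 0 fell, with a list median of 0.25 log2 units. It was Sema3c, a secreted semaphorin, at 59.5 ± 10.48 CPM in Sham_Veh, 109.4 ± 15.7 in Sham_SHU, 65.2 ± 11.2 in VX_Veh and 75.5 ± 16.8 in VX_SHU (SD, n = 4), with a difference of 0.55 (edgeR adjusted p = 0.0489). Bmp7 in the same list had -1.75, the largest difference of the list in size, and did not pass. It varied from 0.60 to 34.5 CPM over the libraries.

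Of 9 committed preadipocyte genes 1 rose and 0 fell (median 0.25), where 1.5% of all genes rose. This was Col15a1, a basement membrane collagen, with group means of 426 ± 71.5 CPM in Sham_Veh, 998 ± 180 in Sham_SHU, 422 ± 128 in VX_Veh and 695 ± 245 in VX_SHU (SD, n = 4), and a difference of 0.97 log2 units (SE 0.19, edgeR adjusted p = 0.0335). Dlk1, the preadipocyte factor that is lost on differentiation, had -1.06 and did not pass, at group means of 0.94 to 3.11 CPM. Several genes of this list, such as Fabp4, Cd36 and Lpl, are far more abundant in mature adipocytes.

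Of 7 genes of the CD142-positive subset 1 rose (median -0.05), beside 1.5% of all genes. It was Meox2, a homeobox transcription factor, higher by 0.51 (SE 0.10, edgeR adjusted p = 0.0384). Its means were 35.0 CPM in Sham_Veh, 44.0 in Sham_SHU, 29.5 in VX_Veh and 47.4 in VX_SHU. Of 14 general fibroblast genes 2 rose (median 0.17), beside the same 1.5%. They were the fibrillar collagens Col1a1 by 0.42 (SE 0.08, edgeR adjusted p = 0.0325) and Col3a1 by 0.60 (SE 0.14, adjusted p = 0.0491). Col3a1 stood at 1413 ± 241 CPM in Sham_Veh, 2046 ± 255 in Sham_SHU, 1070 ± 290 in VX_Veh and 1700 ± 297 in VX_SHU (SD, n = 4), the same order of group means as Dpt. Decorin, encoded by Dcn, stood at 1675 ± 156, 1104 ± 235, 1410 ± 104 and 1656 ± 333 CPM in these groups, and its SHU9119 difference in sham mice was -0.60 (edgeR adjusted p = 0.097).

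The genes that act with the members gave no calls. Of the 4 PDGF ligands 0 passed for SHU9119 averaged over surgeries (median -0.06), beside 1.87% of all genes, the nearest being Pdgfd at 0.24 (edgeR adjusted p = 0.103). At an unadjusted p under 0.05 there was 1, beside 28.5% of all genes. Of 9 partners, among them the integrin chains that bind ICAM1, coagulation factors that bind tissue factor and complement genes around CD55, 0 passed and 0 had an unadjusted p under 0.05 (median -0.01). In the other 6 comparisons 0 genes of any of these 6 lists passed, where at most 0.114% of all genes did. For sDVX averaged over infusions the list medians ran from -0.22 for the interstitial genes to 0.31 for the CD142-positive subset, against 0.00 for all genes.

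**Figure D5:**
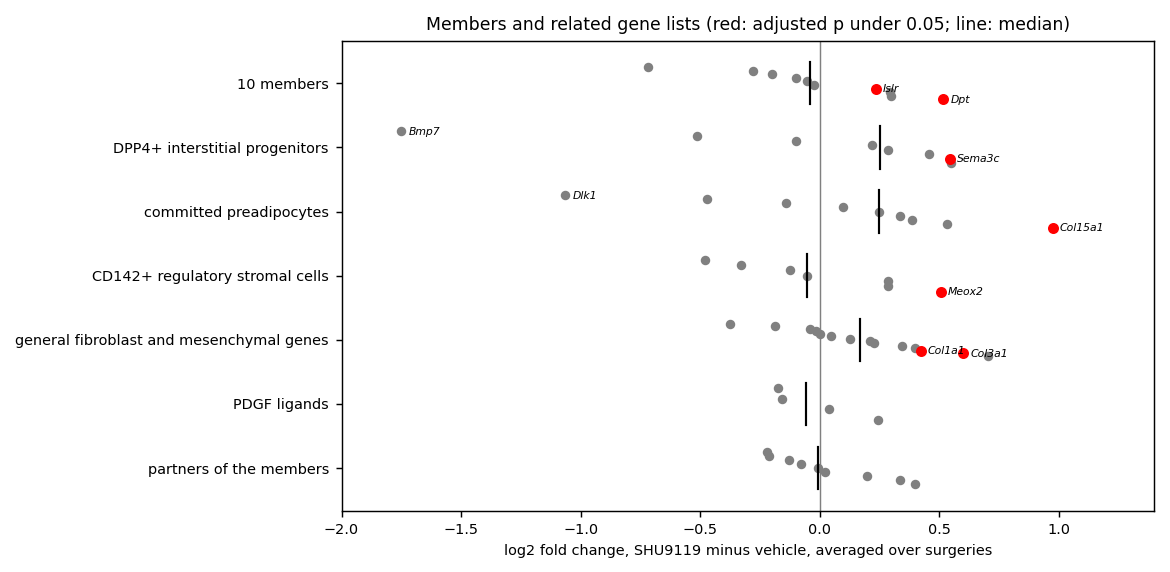
Log2 difference of SHU9119 against vehicle, averaged over surgeries, for the 10 members and 6 related lists (points are genes, black lines are medians, red points have an adjusted p under 0.05). The 7 red points, Islr, Dpt, Sema3c, Col15a1, Meox2, Col1a1 and Col3a1, all lie to the right of 0, from 0.23 to 0.97, among genes of both signs. Over all genes 1.5% passed as higher and 1.87% in either direction, and no gene passed with the replicate block or with the marker covariates.

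The genes most like each member were those with the smallest root mean square difference in centred log2 CPM over the 16 libraries, among 11982 genes. For Dpt they were Col5a2 (0.11), a fibrillar collagen chain, Nid1 (0.11), the basement membrane protein nidogen, and Ehd2 (0.15), while the SD of Dpt itself was 0.42. For Dpp4 they were Pafah1b3 (0.18), Tpd52 (0.18) and Hoxb7 (0.21), beside an SD of 0.87. Pi16 had no close neighbour: the nearest were Tagln (0.35), Tmem158 (0.36) and Des (0.37), beside an SD of 0.57, and Tagln and Des are smooth muscle genes. Ly6a lay nearest to the ribosomal protein genes Rps27a (0.11), Rps13 (0.12) and Rps6 (0.12), with an SD of 0.26. Islr lay nearest to Tmem63a (0.12), Jund (0.13) and Synpo (0.14), with an SD of 0.24. For Ly6a and Islr, which varied little, these distances are nearer to the gene's own SD than those of Dpt and Dpp4.

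The members did not form 1 pattern over the libraries. Of the 45 pairs among them, the closest was Cd55 with Thy1 at 0.19 and the next Ly6a with Icam1 at 0.21, and the farthest was Dpp4 with Dpt at 1.17. VX_Veh1 held both the highest Dpp4 and the lowest Dpt of the 16 libraries, and it also had the lowest adipocyte, endothelial and macrophage sums and the highest cilia sum. Dpt in that library stood at 154.4 CPM against 240 to 294.7 in the other VX_Veh libraries, and without it the sDVX difference of Dpt under vehicle was -0.31 in place of -0.50.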

How the data were processed

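The authors deposited counts of reads per gene from polyadenylated RNA of gonadal fat in 16 libraries, 4 per group, with NCBI gene numbers. Per the submitters' processing notes, bcl2fastq, TopHat and edgeR were used with the mm10 build. No source used here states the counting tool, annotation or strand setting, so reads of Pdgfra, Pi16, Dpt, Ly6a and Cd55 cannot be told apart from those of genes that overlap them in RefSeq. Symbols were matched for 24374 of 24454 genes, and the other 80 held 0.557% to 1.24% of a library's counts.

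R 4.3.3 and edgeR 4.0.16 were used. filterByExpr by group kept 16682 of the 21661 genes that had a count. They were scaled by TMM factors and fitted with a robust quasi-likelihood model with 1 mean per group over all 16 libraries (12 residual degrees of freedom). The contrasts were tested with Benjamini-Hochberg adjustment over all genes, at 0.05. CPM are TMM-scaled, and their log2 values have a prior count of 2. The coefficient of biological variation was 22.8% (median over genes), and the common value was 50.0%. Replicates were checked for duplicates in 24 pairs, and none was a copy (chi-square over degrees of freedom from 11.8 to 203.9). The fit was tested on simulated counts that had the same dispersion for all genes. They had no differences between libraries in neighbouring tissue, so they do not show how the fit behaves on these libraries.

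Alternatives were DESeq2 1.42.0 (size factors, Wald test), limma-voom (limma 3.58.1), non-robust dispersion, no low-count filter, the replicate number as a block, the 2 groups compared alone, the 10 libraries low in epididymis and testis markers, and leaving out each library. The fit with epididymis and cilia sums as covariates was added after seeing the data. The members, gene lists and tests were chosen with earlier results of these data known. Context genes were named where they passed the threshold, otherwise up to 3 with the smallest p and a mean of at least 5 CPM. Bmp7 and Dlk1 in the averaged comparison, and the libraries singled out, were named after their values were seen.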

Additional observations from a re-analysis of the deposited data

Results flagged for a closer look

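A sample far from the others of its group was looked for among the 4 libraries of each group for each of the 10 genes, in 40 groups in all, with Dixon's ratio at its 95% critical value, which chance exceeds in about 1 group of 20. Icam1 in Sham_Veh4 stood at 19.1 CPM, with 24.1 as the nearest of the other 3 libraries, and the gap took 0.871 of the range of the group. Thy1 in Sham_SHU2 stood at 37.9 CPM, with 21.9 as the nearest, and the gap took 0.848 of the range. Sham_Veh4 had the largest sum of testis markers of the 16 libraries, 1915 CPM, and Sham_SHU2 had sums of epididymis and testis markers of 61.7 and 163.4 CPM. The part of these markers in either value was not tested.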

How the results depend on the processing

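Counts of members past the adjusted threshold depended on the test. For SHU9119 averaged over surgeries the count of 2 became 3 by the DESeq2 Wald test, 6 by limma-voom, 5 in the 10 libraries low in epididymis and testis markers, 1 without a low-count filter, and 0 with epididymis and cilia covariates. Over all genes the calls in that comparison numbered 312, and 0 with these covariates, 167 without the filter, 2792 by DESeq2, 3899 by limma-voom and 4062 in the 10 libraries. In sham mice the count of 0 became 2 by DESeq2 and 4 by limma-voom, beside 8.74% and 23.2% of the genes each gave an adjusted p. In sDVX mice it became 1 by DESeq2 (0.486%). For sDVX under SHU9119 it became 1 by DESeq2 (0.574%) and 3 by limma-voom (4.67%), and for sDVX averaged over infusions 2 (2.52%) and 1 (0.671%). Leaving out 1 library gave 0 to 3 members for SHU9119 averaged over surgeries and 0 to 2 for SHU9119 in sham mice. Both highest counts came without Sham_SHU3, where 11% and 7.09% of all genes passed. Without any other single library 0.0177% to 5.11% of all genes passed in the average and 0% to 3.12% in sham mice. The cause of these shifts was not tested.

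Whether the replicate numbers pair the libraries was not settled. Correlations of the deviations of same-numbered libraries ran from -0.69 to 0.68, the highest between Sham_Veh1 and VX_Veh1. In 15 of 48 matches of a library to another group, each among 4 libraries, the closest library had the same number. No range was taken for libraries of different number. With the replicate number as a block, 0 members and 0 of all genes passed for SHU9119 averaged over surgeries, and the block changed no other count of members.

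Every reversal of sign concerned a difference that was not called, and the largest was Dpp4 for sDVX under vehicle, at 0.69 in the fit reported. By limma-voom, the log2 difference of SHU9119 in sDVX mice was 0.01 for Pdgfra and 0.07 for Ly6a, that of sDVX under vehicle was -0.18 for Dpp4, -0.02 for Ly6a and 0.08 for Thy1, and the interaction was 0.37 for Dpp4 and -0.03 for Dpt. In the 10 libraries, Pi16 had -0.06 for SHU9119 in sham mice, Pdgfra 0.09 and Thy1 0.05 for sDVX under vehicle, Dpp4 0.35 and Icam1 -0.04 for the interaction, and F3 0.17 for SHU9119 averaged. With the covariates, Pdgfra had 0.01 for SHU9119 in sDVX mice, Thy1 0.01 for sDVX under vehicle, Dpp4 0.01 for the interaction, Pi16 0.01 for SHU9119 averaged and F3 -0.01 for sDVX averaged. Without the filter Thy1 had 0.01 for sDVX under vehicle.

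Leaving out 1 library also crossed 0 in these ranges. For the interaction they were -0.97 to 0.05 for Dpp4, -0.04 to 0.14 for Icam1, -0.08 to 0.19 for Ly6a, -0.31 to 0.19 for Pi16 and -0.34 to 0.03 for Thy1. For SHU9119 they were -0.12 to 0.05 for F3 and -0.13 to 0.12 for Pi16 in the average, -0.23 to 0.05 for Ly6a, -0.15 to 0.05 for Pdgfra and -0.28 to 0.22 for Pi16 in sDVX mice, and -0.07 to 0.18 for Pi16 in sham mice. For sDVX they were -0.01 to 0.15 for F3 and -0.17 to 0.00 for Thy1 in the average, -0.28 to 0.71 for Dpp4 and -0.34 to 0.02 for Thy1 under SHU9119, and -0.16 to 0.05 for Pdgfra and -0.07 to 0.06 for Thy1 under vehicle.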
